A study of Mus musculus with 6 samples.

Results

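The gene Trp53 encodes the transcription factor p53, and it was followed here together with 9 genes that p53 is known to activate: Cdkn1a, Mdm2, Phlda3, Ccng1, Eda2r, Bax, Bbc3, Sesn2 and Gdf15. All 10 genes were found by symbol among the 24077 genes of the single-cell table and the 30828 genes of each section table, so none was lost. On GRCm38 (GENCODE M21) Trp53 lies at chr11:69580359-69591873, Cdkn1a at chr17:29090976-29100727, Mdm2 at chr10:117688875-117710758, Ccng1 at chr11:40748552-40755311 and Eda2r at chrX:97333840-97377216. Bax lies at chr7:45461697-45466898, Bbc3 at chr7:16308393-16318205, Sesn2 at chr4:132492032-132510501 and Gdf15 at chr8:70629393-70632456. Bax and Sesn2 each overlap another gene model on the same strand, so their counts are uncertain. The 10 genes are textbook members of the pathway and were chosen with earlier results of these data known, so the tests of them are not independent of that choice.

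In an unstressed cell the p53 protein is kept scarce by Mdm2, a ubiquitin ligase that marks it for destruction and is itself a p53 target. DNA damage, oncogene activity and ribosomal stress release p53, which then binds pairs of a short DNA half-site near its targets and switches on genes for cell cycle arrest, apoptosis and metabolic restraint. p53 is controlled mainly at the level of the protein, so the amount of Trp53 mRNA is not a measure of p53 activity. Cdkn1a, Gdf15 and Sesn2 are also induced by other stress pathways, and the p53 homologs p63 and p73 recognise the same DNA half-site.

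The samples were uteri of female CD-1 mice, an outbred stock, at 12 months of age. Pups of both groups had been injected under the skin on days 1 to 5 after birth, the control (CO) group with corn oil and the DES group with the synthetic estrogen diethylstilbestrol at 1 mg/kg/day in corn oil. Dissociated horns gave 1 single-cell library for each treatment, from 2 pooled CO mice and 4 pooled DES mice, and 2 mice of each treatment gave 1 Visium section each, lettered A and B. In Visium, tissue is laid on a grid of capture spots, and each spot collects RNA from several cells. The methods place the CO mice in estrus and the adult DES mice in persistent estrus, and the DES sections were picked because they contained adenocarcinoma, so exposure, tumour and cycle state cannot be told apart. Cells were freed with trypsin, and CO B carries a tissue fold.

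Depth was counted in UMIs (unique molecular identifiers, each 1 captured transcript). A median cell carried 6779 of them among the 32387 CO cells and 10154 among the 16312 DES cells. Sections held 1357 to 1834 spots and 9117099 to 12506177 UMIs. Levels are given in CPM, the UMIs of a gene scaled to 1000000 UMIs of its library, section or group. With 1 library for each treatment the cell comparisons have no replicate, and their intervals cover counting error only. Of the CO and DES cells, 20134 and 6611 carried no cell type annotation and entered only the library totals. In the annotated epithelium, Epcam, Cdh1, Krt8, Krt18 and Krt19 summed to 4745 CPM in CO and 3104 CPM in DES. The same markers summed to 2013 and 1259 CPM in mesothelial cells. The labels were made from these same data, so a match to markers is no independent check of them. The cells annotated as Lymphocytes did not match theirs cleanly, since 4 myeloid markers summed to 3328 CPM in CO and 8814 CPM in DES, above the 1439 and 1262 CPM of 4 lymphocyte markers. In bulk spots, fewer cells of a type and less RNA per cell cannot be told apart.

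The promoters of the members were searched for the p53 half-site of 10 letters, which reads the same on both strands. RefSeq windows of 300 bases (GRCm38.p6, 250 before and 50 after a gene start) were at hand for all 10 members, 14 windows in all. An exact half-site lay in 5 of the 14, from 5 genes, against 8.36% of all 32851 windows. The stretches around these matches are shown because they tell the members with a half-site at the promoter from those without one, and the capitals mark the half-sites.
Cdkn1a, chr17:29090881-29090962, plus strand: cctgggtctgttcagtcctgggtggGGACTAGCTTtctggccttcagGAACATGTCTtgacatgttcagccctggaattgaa
Mdm2, chr10:117710910-117710969, minus strand: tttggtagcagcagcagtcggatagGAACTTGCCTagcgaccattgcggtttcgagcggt
Ccng1, chr11:40755437-40755496, minus strand: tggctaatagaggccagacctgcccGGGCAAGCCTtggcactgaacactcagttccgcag
Bax, chr7:45467065-45467124, minus strand: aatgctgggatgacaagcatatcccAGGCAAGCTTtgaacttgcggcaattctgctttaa
Trp53, chr11:69580259-69580318, plus strand: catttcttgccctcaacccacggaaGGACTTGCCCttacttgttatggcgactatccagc

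Cdkn1a, the gene of the cell cycle inhibitor p21, was the only member with 2 exact half-sites, 12 bases apart, in the window of its first start. Windows with at least 2 half-sites made up 0.359% of all windows. The sites of the other 4 genes lay 66 bases before the start in Trp53 and 176 to 192 bases before it in Ccng1, Mdm2 and Bax. The windows of Phlda3, Eda2r, Bbc3, Sesn2 and Gdf15 held no exact match, which says only that these letters are not in these windows. The matches are a description of sequence and were not tied to binding in these tissues.

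In the tissue sections, Phlda3 was the only member called between treatments by the edgeR fit. Phlda3 encodes a small pleckstrin-homology protein that holds back Akt signalling, and it lies at chr1:135766119-135769136 of GRCm38. Over whole sections its level was 48.9 and 53.8 CPM for CO A and B against 310.2 and 233.7 CPM for DES A and B. Both DES sections therefore stood well above both CO sections, with means of 51.4 ± 3.47 CPM (SD, n = 2) and 271.9 ± 54.1 CPM (SD, n = 2). The fitted change was 4.57-fold (log2 2.19, SE 0.20, edgeR quasi-likelihood adjusted p = 0.0206). It was 1 of 10 members called higher, against 2.67% of the 14098 genes tested, and 0 members were called lower, against 2.63% of genes. At an unadjusted p under 0.05 the edgeR test gave 3 members higher and 1 lower, with 3438 of the 14098 genes below that p in either direction. DESeq2 called 2 members higher and 0 lower, against 822 and 969 of the 14098 genes. Cell-type markers moved with these whole-section values. The 4 muscle markers summed to 11133 and 10834 CPM in CO and 2308 and 2664 CPM in DES, the 3 basal markers to 3.36 and 159.7 CPM in CO and 9526 and 5644 CPM in DES, and the 4 myeloid markers to 199.4 and 453.3 CPM in CO and 1685 and 872.7 CPM in DES. Their part in the differences of Phlda3, Trp53 and Cdkn1a was not tested. The whole-section call rested on both DES sections, since the adjusted p was 0.106 without DES A and 0.0860 without DES B, at log2 changes of 1.998 and 2.34.

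Trp53 itself was 30.6 and 29.5 CPM for CO A and B against 57.4 and 48.4 CPM for DES A and B. The groups did not overlap, but the fitted 1.52-fold difference did not pass the correction (log2 0.60, SE 0.17, edgeR adjusted p = 0.112). Cdkn1a was 35.2 and 21.6 CPM in the CO sections and 75.8 and 71.1 CPM in the DES sections. Its fitted difference of 2.23-fold missed the threshold (SE 0.28 on the log2 scale, edgeR adjusted p = 0.0915) and passed it with DESeq2 (adjusted p = 0.0124). With 1 section left out, whether Cdkn1a was called changed with the section, and its log2 change over the 9 alternatives ran from 0.83 to 1.58. Over the same alternatives the log2 change ran from 0.50 to 0.67 for Trp53 and from -2.86 to -0.60 for Eda2r. Neither was called in an alternative that kept all sections.

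Gdf15, which encodes a secreted stress cytokine that suppresses appetite through the hindbrain, went the other way at a very low level. It was 3.12 and 3.63 CPM in the CO sections and 1.32 and 1.62 CPM in the DES sections, which rests on 39, 40, 12 and 16 UMIs. The 2.63-fold lower value did not pass the correction (edgeR adjusted p = 0.118). Eda2r, a death-domain receptor of the TNF receptor family, ran from 0.607 to 6.62 CPM with CO A at 1.44 CPM, inside the range of the DES sections, and CO B highest.

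The other members were not called over whole sections, which does not show that they did not differ. Mdm2 was 34.0 to 36.1 CPM in CO and 36.6 to 38.5 CPM in DES, with a fitted log2 difference of -0.11 and an SE of 0.16. Ccng1, the gene of cyclin G1, was 68.3 and 69.8 CPM in CO and 55.3 and 64.5 CPM in DES (edgeR adjusted p = 0.245). Bax and Bbc3, which encode the apoptosis effector BAX and its activator PUMA, were 144.2 and 105.2 CPM in CO against 172.3 and 149.4 in DES, and 8.64 and 19.4 CPM in CO against 15.4 and 10.3 in DES. Sesn2, the gene of a leucine sensor that restrains mTORC1, was 9.34 to 12.4 CPM in all 4 sections. By plain CPM, 5 of the 10 members were higher in both DES sections than in both CO sections, where 43.8% of all genes tested were, and 2 were lower in both, where 17.9% of genes were. On the log2 scale the median gene differed by 0.20 between DES and CO in plain CPM and by -0.01 after TMM scaling, and the directions of Mdm2 and Sesn2 over whole sections, and of Bax and Sesn2 in the epithelium-rich spots, change between these scalings, as does that of Ccng1 in the stromal spots.

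**Figure D1:**
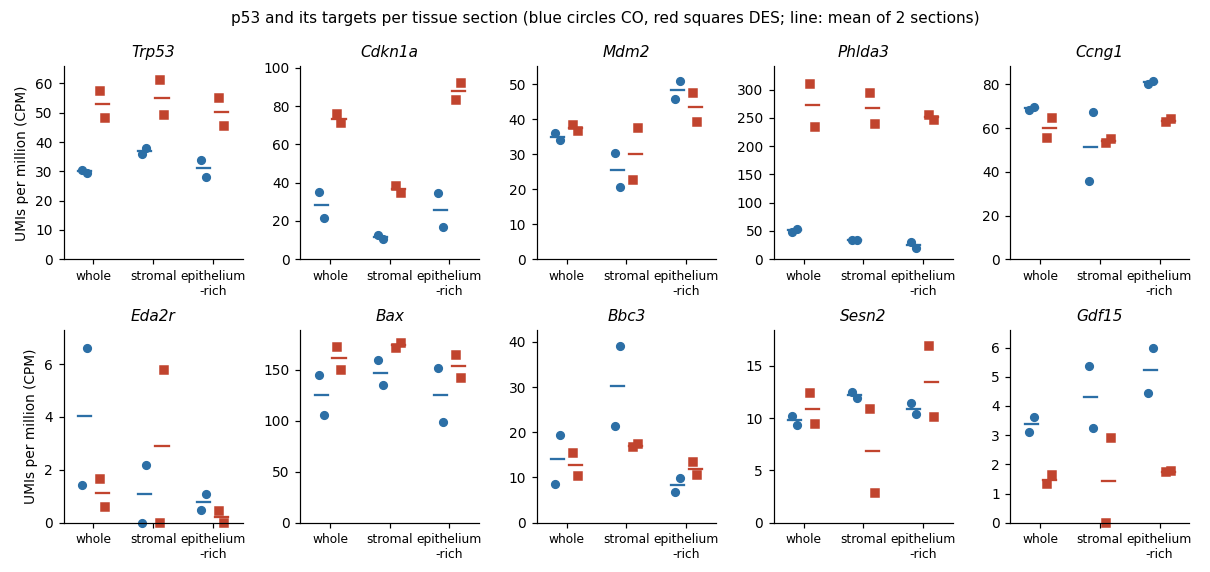
Levels of the 10 members in CPM for each of the 4 sections, over all spots, over the stromal spot cluster and over the epithelium-rich spots (blue circles CO, red squares DES, horizontal lines the mean of 2 sections). Phlda3 lay between 234 and 310 CPM in the whole DES sections and at 48.9 and 53.8 CPM in the whole CO sections, and the whole-section values of Mdm2 lay between 34.0 and 38.5 CPM in both groups.

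Phlda3 was also called in the stromal region. This was 1 spot cluster of each section, the one the study took as stroma, with 101 and 188 spots in CO and 211 and 132 spots in DES. Its 5 stromal markers summed to 3787 and 2624 CPM in CO and to 4582 and 2869 CPM in DES, and muscle-rich clusters of the CO sections held as much, up to 4039 and 3999 CPM. Phlda3 was 34.0 and 34.7 CPM for CO A and B against 294.5 and 239.6 CPM for DES A and B there, a change of 7.48-fold (log2 2.90, SE 0.31, edgeR adjusted p = 0.0142). Here 7 members passed the count filter. Phlda3 was the 1 called higher, against 0.796% of the 8914 genes tested, and 0 were called lower, against 0.673%. At an unadjusted p under 0.05 edgeR gave 2 members higher and 0 lower, with 1194 of the 8914 genes below that p in either direction. DESeq2 called 1 member higher and 0 lower, against 104 and 89 of the 8914 genes. Cdkn1a was 12.5 and 10.8 CPM in CO and 38.4 and 34.6 CPM in DES, on 7 to 39 UMIs a section (3.02-fold, edgeR adjusted p = 0.128). Trp53 was 35.8 and 37.9 CPM in CO and 61.1 and 49.1 CPM in DES (edgeR adjusted p = 0.565), and Bax 159.4 and 134.4 CPM in CO and 171.4 and 176.1 CPM in DES. Bbc3 was 21.5 and 39.0 CPM in CO and 16.7 and 17.3 CPM in DES (edgeR adjusted p = 0.450). The CO and DES values overlapped for Mdm2, at 20.6 to 37.5 CPM, and Ccng1, at 35.8 to 67.2 CPM, and Eda2r, Sesn2 and Gdf15 did not reach the count filter. Choosing the 15% of spots richest in stromal markers instead of the cluster gave a Phlda3 log2 change of 1.06 that was not called (edgeR adjusted p = 0.129). Those CO spots had Phlda3 at 78.5 and 106.8 CPM, and their 4 muscle markers summed to 20416 and 26033 CPM against 543 and 326 CPM in the cluster. The stromal cluster was not pure in DES, where Krt14, Krt5 and Trp63 summed to 7058 and 1998 CPM against 0 and 90.0 CPM in CO, and the muscle markers to 2065 and 6247 CPM. Their part in the Phlda3 difference was not tested.

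Phlda3 was called in the epithelium-rich spots as well, with a change within 1 SE of that in the stromal cluster. These were the 20% of spots in each section with the greatest share of UMIs from Epcam, Cdh1, Krt8, Krt18 and Krt19. Phlda3 was 30.4 and 19.1 CPM for CO A and B against 255.2 and 246.02 CPM for DES A and B. The change was 8.09-fold (log2 3.02, SE 0.29, edgeR adjusted p = 0.0132). It was called in all 5 alternatives that kept every section, and its log2 value ran from 2.71 to 3.43 over all 9. Phlda3 was the 1 called higher of the 9 members tested, against 4.41% of the 11733 genes, and 0 were called lower, against 2.72%. DESeq2 called 2 members higher and 0 lower, against 676 and 535 of the 11733 genes. With 3067 of the 11733 genes at an unadjusted p under 0.05 in either direction, the edgeR test gave 2 members higher and 2 lower at that p. The lower ones were Ccng1, at 80.2 and 81.8 CPM in CO and 62.7 and 64.3 CPM in DES (edgeR adjusted p = 0.0894), and Gdf15, at 4.44 and 5.996 CPM in CO and 1.73 and 1.76 CPM in DES (edgeR adjusted p = 0.0898). Cdkn1a was 34.6 and 16.9 CPM in CO and 83.5 and 92.0 CPM in DES (2.72-fold, edgeR adjusted p = 0.0802). Trp53 was 33.9 and 28.1 CPM in CO and 54.9 and 45.3 CPM in DES (edgeR adjusted p = 0.367). Bbc3 was 6.78 and 9.81 CPM in CO and 13.4 and 10.6 CPM in DES, not called either. The groups overlapped for Mdm2 (39.2 to 51.0 CPM), Bax (98.9 to 164.4 CPM) and Sesn2 (10.1 to 16.9 CPM), and Eda2r did not reach the count filter. Cdkn1a was called here by DESeq2 (adjusted p = 0.0181). Over the 9 alternatives for this region its log2 change ran from 1.01 to 2.09, and that of Ccng1 from -0.70 to -0.61. Basal cell markers moved with these results: Krt14, Krt5 and Trp63 summed to 4.68 and 178 CPM in the CO epithelium-rich spots and to 9300 and 6693 CPM in the DES ones. Their part in these differences was not tested.

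Phlda3 and the basal keratin gene Krt14 were therefore laid side by side over the spot clusters. Among the DES A clusters of at least 20 spots, Phlda3 ran from 210.4 to 427.1 CPM, a 2.03-fold range, while Krt14 ran from 414 to 7030 CPM, a 16.99-fold range. Among the DES B clusters the ranges were 2.42-fold for Phlda3, from 135.6 to 327.7 CPM, and 11.7-fold for Krt14. No DES cluster of at least 20 spots had Krt14 under 322 CPM, and a DES A cluster of 2 spots held neither gene. Clusters whose 4 muscle markers summed to at least 15000 CPM were taken as muscle-rich. The muscle-rich cluster of DES A, with a sum of 22538 CPM, had Phlda3 at 343.0 CPM with Krt14 at 414 CPM, and the muscle-rich cluster of DES B had Phlda3 at 220.9 CPM with Krt14 at 336 CPM. In the 4 muscle-rich clusters of each CO section, Phlda3 was 75.3 to 137.5 CPM in CO A and 84.1 to 111.1 CPM in CO B, below both DES muscle clusters.

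A small cluster of CO B went with the DES spots. Its 17 spots carried Krt14 at 2288 CPM, where no other CO cluster was above 36.9 CPM, and Phlda3 at 228.8 CPM (95% Poisson interval 166.9 to 306.2). Every other CO B cluster of at least 20 spots had Phlda3 at 13.6 to 111.1 CPM. Without these 17 spots the whole-section change in Phlda3 was log2 2.24 (edgeR adjusted p = 0.0180).

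**Figure D2:**
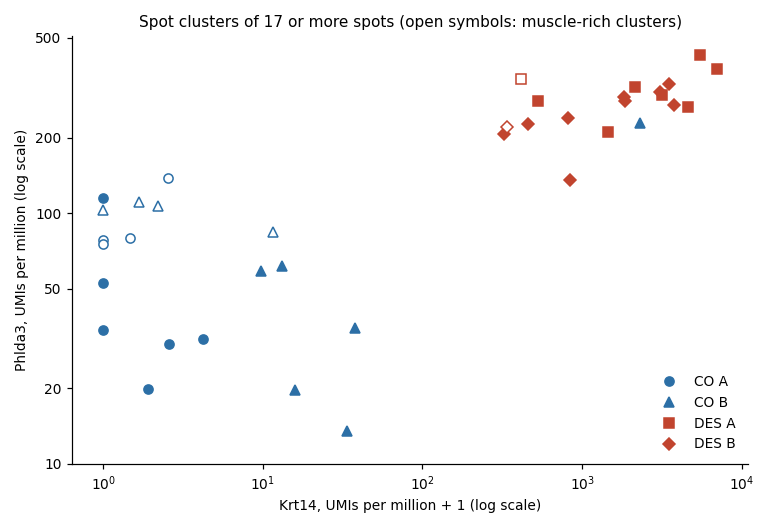
Phlda3 against Krt14 in CPM for each spot cluster of 17 or more spots, both axes on a log scale and 1 added to Krt14, with CO clusters in blue, DES clusters in red and muscle-rich clusters as open symbols. DES clusters lie at 135.6 CPM of Phlda3 or more and at 322 CPM of Krt14 or more, and a single CO B cluster of 17 spots, at 229 CPM of Phlda3 and 2288 CPM of Krt14, lies among them.

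Among the dissociated DES cells, Phlda3 was highest in the basal epithelium. Clusters were made from these same genes, so this is a description with no test. The 2 basal clusters of the integrated epithelium, 8 and 11, were present as 351 and 257 DES cells, with Krt14 at 3858 and 3047 CPM. Phlda3 was 218.7 CPM in cluster 8 (95% Poisson interval 207.7 to 230.2) and 266.8 CPM in cluster 11 (251.1 to 283.2). When each cell was thinned to 3000 UMIs, 50.9% of cluster 8 cells and 57.6% of cluster 11 cells held a Phlda3 UMI. The study removed basal cells by their Krt14 and Trp63 counts before clustering the other DES epithelium, called epithelium outside the basal clusters below. Whether any of those cells lay in clusters 8 or 11 was not checked. In that set, 4608 cells in 16 clusters, Phlda3 was 5.85 CPM and 1.996% of thinned cells held a UMI. Its cells had a median of 24664 UMIs, against 17129 and 11086 in the basal clusters. Across those 16 clusters Phlda3 ran from 1.84 CPM in cluster 10 to 20.6 CPM in cluster 14, and in DES mesothelial cells it was 72.9 CPM. Cluster 14 also had the most Krt14 of the 16, at 64.8 CPM, and whether it still held basal cells was not tested.

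For each Krt14 UMI, the basal cells held 0.0567 and 0.0875 Phlda3 UMIs in clusters 8 and 11. The whole DES sections held 0.0743 and 0.116, and the muscle-rich spot clusters held 0.829 in DES A and 0.658 in DES B. Cells and spots are different assays, and whether their ratios share 1 scale was not tested. Krt14 was 7030 CPM in cluster 1 of DES A, above the 3858 and 3047 CPM of the basal cells. The CO muscle-rich clusters in which Krt14 was counted held 7.94 to 166, with Krt14 at no more than 10.6 CPM. The highest ratios, 165 and 166, had Krt14 at 0.481 CPM in CO A and 0.669 CPM in CO B. Such ratios rest on almost no Krt14 UMIs. The remaining CO muscle-rich clusters held no Krt14 UMI and gave no ratio. No DES myocytes were annotated in the cell library to set beside them, and CO myocytes, 85 cells, had Phlda3 at 44.7 CPM.

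Other members separated the 2 basal clusters from each other. Cdkn1a was 61.5 CPM in cluster 8 and 13.9 CPM in cluster 11 (95% Poisson intervals 55.7 to 67.7 and 10.47 to 17.996). The 13 immediate early genes, which respond within minutes to stimuli including tissue dissociation, moved with it, at 19223 CPM in cluster 8 and 1958 CPM in cluster 11, and their part in the difference was not tested. Trp53 was 108.8 and 113.1 CPM, Bax 111.7 and 118.0 CPM and Mdm2 37.0 and 29.7 CPM, with intervals that overlapped between the clusters for each of these genes. Ccng1 was lower in cluster 8, at 45.3 CPM against 60.6 CPM (40.4 to 50.7 and 53.3 to 68.7).

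Outside the basal clusters, DES epithelium held more Trp53 transcript than CO epithelium and less of every target except Bbc3. Trp53 was 72.9 CPM over 2583 CO cells and 108.7 CPM over 4608 DES cells, a 1.49-fold higher level (95% counting interval 1.45 to 1.54). The share of thinned cells with a Trp53 UMI was 16.9% in CO and 28.1% in DES. Of the 7 members that reached 10 CPM in either library, 2 were lower in DES by at least 2-fold, against 7.71% of the 8414 genes at that level, and 0 were higher by 2-fold, against 6.92%.

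Those 2 genes were Gdf15 and Phlda3. Gdf15 was 58.5 CPM in CO and 3.03 CPM in DES epithelium, 19.3-fold lower (interval 17.6 to 21.2), and 10.7% and 0.812% of thinned cells held a UMI. Among other cell types, 1.77% of thinned CO stromal cells and 0.185% of thinned DES mesothelial cells held one. The 95% Clopper-Pearson interval was 0.0744 to 0.381 for the latter and 0.572 to 1.12 for DES epithelium. Other groups had higher shares, at 11.1% of CO pericytes, 5.48% of CO Lymphocytes and 1.41% of DES Lymphocytes. Free RNA was not measured, and its part in the Gdf15 difference was not tested. Phlda3 was 13.4 CPM in CO and 5.85 CPM in DES, 2.29-fold lower (2.09 to 2.499), which is the opposite direction to the sections. Over all cells annotated as Epithelial, 2583 in CO and 5255 in DES, Phlda3 was 13.4 and 20.3 CPM, the direction of the sections.

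A pair of members lay just inside the 2-fold line. Cdkn1a was 78.0 CPM in CO and 39.5 CPM in DES, a ratio of 0.506 (0.489 to 0.524). Its direction was the opposite in the epithelium-rich spots, at 2.72-fold higher in DES (edgeR adjusted p = 0.0802). The difference between the assays was not tested. Ccng1 was 88.5 and 44.4 CPM, a ratio of 0.502 (0.485 to 0.518). Smaller differences were measured for Mdm2, at 28.8 and 20.7 CPM, and for Bax, at 117.5 and 96.3 CPM. The rare members were under 10 CPM in both libraries: Sesn2 at 5.79 and 3.16 CPM, Bbc3 at 2.65 and 3.84 CPM and Eda2r at 1.70 and 0.457 CPM.

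Immediate early transcripts moved with these differences, and their part in them was not tested. Leaving out the cells rich in them, as done below, may also change the mix of clusters compared. In the epithelium-rich spots the 13 immediate early genes summed to 1285 and 1149 CPM in CO A and B and 1342 and 1260 CPM in DES A and B. Gdf15 was 4.44 and 5.996 CPM in those CO spots. In the dissociated epithelium outside the basal clusters the 13 genes summed to 5856 CPM in CO and 1392 CPM in DES, and 11 of them were lower in DES by 2-fold. Among them Ier3 was at a ratio of 0.0688, Egr1 at 0.0862, Fosb at 0.0959 and Zfp36 at 0.124. Cells in which these genes took at most 0.1% of UMIs made up 4.92% of CO and 68.4% of DES epithelium, 127 and 3154 cells. In those cells alone the Cdkn1a ratio was 0.826, from 43.4 and 35.9 CPM, and the Gdf15 ratio 0.122, from 11.5 and 1.41 CPM. The Phlda3 ratio there was 0.258, the Ccng1 ratio 0.495 and the Trp53 ratio 1.45.

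**Figure D3:**
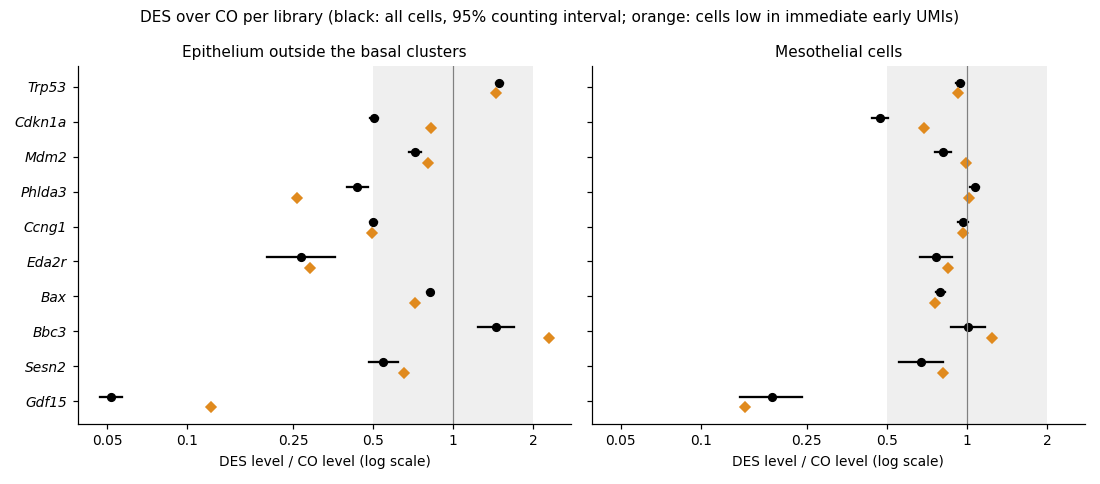
DES level divided by CO level for the 10 members on a log scale, in epithelium outside the basal clusters and in mesothelial cells (black circles all cells with 95% counting intervals, orange diamonds only cells with at most 0.1% immediate early UMIs, grey band less than 2-fold). Gdf15 was lowest in epithelium at 0.0518, and Cdkn1a moved from 0.506 to 0.826 when only cells low in immediate early UMIs were used.

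Mesothelial cells, the lining of the outer uterine surface, gave a second cell type captured in number from both libraries, 6866 CO and 3837 DES cells. Trp53 was 94.4 and 89.0 CPM, Phlda3 68.2 and 72.9 CPM and Ccng1 66.5 and 64.4 CPM, ratios between 0.943 and 1.07. Of the 6 members at 10 CPM or more, only Cdkn1a was lower in DES by 2-fold, against 2.33% of 8814 genes, and 0 members were higher, against 1.89%. Cdkn1a was 34.6 CPM in CO and 16.3 CPM in DES, a ratio of 0.471, and the ratio was 0.688 in cells low in immediate early UMIs. Mdm2 was 23.9 and 19.4 CPM and Bax 93.0 and 73.8 CPM. Under the 10 CPM line in both libraries were Gdf15 at 5.45 and 1.01 CPM, Eda2r at 6.64 and 5.08 CPM, Bbc3 at 4.99 and 5.05 CPM and Sesn2 at 3.81 and 2.57 CPM. The immediate early genes summed to 4666 CPM in CO and 2112 CPM in DES mesothelium.

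The immune cells were few, and their values are given without a share over all genes. In cells annotated as Myeloid, 67 CO and 228 DES cells, Gdf15 was 74.6 CPM in CO (95% Poisson interval 54.7 to 99.6) and 451.6 CPM in DES (422.9 to 481.7), a ratio of 6.05. With the 136 DES cells annotated as DES-Myeloid-Lyz2hi added to the DES group, the ratio was 3.70 (2.76 to 5.08). Ccng1 was 47.1 CPM in CO and 20.1 CPM in DES myeloid cells, a ratio of 0.427 (0.259 to 0.713), and the ratio was 0.812 with those cells added. Phlda3 was 9.74 CPM in CO and 0.981 CPM in DES, on 6 and 2 UMIs, and 33.7 CPM in DES with them. The share of thinned myeloid cells with a Gdf15 UMI was 16.4% in CO and 24.8% in DES. In cells annotated as Lymphocytes, 423 and 239 cells, Cdkn1a was 157.5 CPM in CO and 327.0 CPM in DES, a ratio of 2.08 (1.81 to 2.39). Phlda3 was 6.23 and 12.8 CPM there, a ratio of 2.05 on 14 and 19 UMIs (0.974 to 4.41). That group carried the mixed markers given above, and the myeloid markers in it were higher in DES. Eda2r gave no UMI in cells annotated as Myeloid in either library, which allows at most 5.99 CPM in CO and 1.81 CPM in DES. The DES-Myeloid-Lyz2hi cells held 2 Eda2r UMIs.

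The remaining annotated cell types came almost entirely from the CO library and order the members by tissue. CO stromal cells, 1326 in number, had Cdkn1a at 10.3 CPM, the lowest of the CO cell types, and Trp53 at 73.9 CPM. Phlda3 was 155.9 CPM in the 22 Stmn1-hi cells, whose 14 cell cycle genes summed to 2999 CPM, against 6.23 to 68.2 CPM in the other CO cell types. It rests on 66 UMIs (95% Poisson interval 120.6 to 198.3 CPM), with a UMI in 81.8% of the cells unthinned, 40.9% at 5000 UMIs and 4.55% at 3000 UMIs. Eda2r was 8.96 CPM in the Ctla2a cells (95% Poisson interval 5.80 to 13.2) and 6.64 CPM in mesothelial cells (6.10 to 7.22), which did not differ beyond their intervals, and the Stmn1-hi cells held only 5 Eda2r UMIs. Trp53 ran from 65.0 CPM in Lymphocytes to 116.3 CPM in the 75 pericytes.

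Within CO epithelium, the members were unevenly spread over the 15 clusters. Since the clusters were made from these same genes, their differences are a description with no test. Cluster CO12, 71 cells, had the highest level of Bax at 256.3 CPM (95% Poisson interval 233.2 to 281.0), apart from the next cluster, CO14, at 156.5 CPM (131.8 to 184.4). CO12 also led for Ccng1 at 135.8 CPM, Mdm2 at 41.9 CPM and Bbc3 at 8.49 CPM, but for these 3 genes its interval overlapped that of the next cluster. Cluster CO14, 28 cells, in which the 14 cell cycle genes summed to 1686 CPM, had the highest Gdf15 at 400.0 CPM (359.9 to 443.4), the highest Trp53 at 133.3 CPM, the highest Phlda3 at 30.9 CPM and the highest Eda2r at 11.02 CPM. Only for Gdf15 did its interval lie above that of the next cluster, while Trp53 and Phlda3 in CO12, at 123.9 and 27.7 CPM, and Eda2r in CO8, at 6.91 CPM, had intervals that overlapped it. The other cycling cluster, CO4, had its cell cycle genes at 1123 CPM with Gdf15 at 40.0 CPM and Trp53 at 88.3 CPM. Thinned to 3000 UMIs, a CO12 cell held a UMI of 1.94 of the 10 members on average and a CO14 cell of 2.07, against 0.817 to 1.34 in the other 13 CO clusters.

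Gdf15 and Cdkn1a had the widest cluster ranges of the members above 10 CPM in CO epithelium. Gdf15 went from 7.18 CPM in CO2 to 400.0 CPM in CO14, a 55.7-fold range, with CO3 second at 235.9 CPM. Cdkn1a went from 18.3 CPM in CO8 and 19.1 CPM in CO13 to 154.0 CPM in CO7. Over the 15 CO clusters the log level of Gdf15 had a Pearson r of 0.83 with that of the immediate early genes, and Cdkn1a one of 0.27. Over the 16 DES clusters r was 0.64 for Gdf15 and 0.65 for Cdkn1a, beside 0.72 for Sesn2 and 0.66 for Eda2r. The lowest was -0.12 for Trp53. DES9 lay far above the other DES clusters in immediate early genes, at 10004 CPM, and r without it was not taken. The points of each r share 1 library, and r is given as a description.

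**Figure D4:**
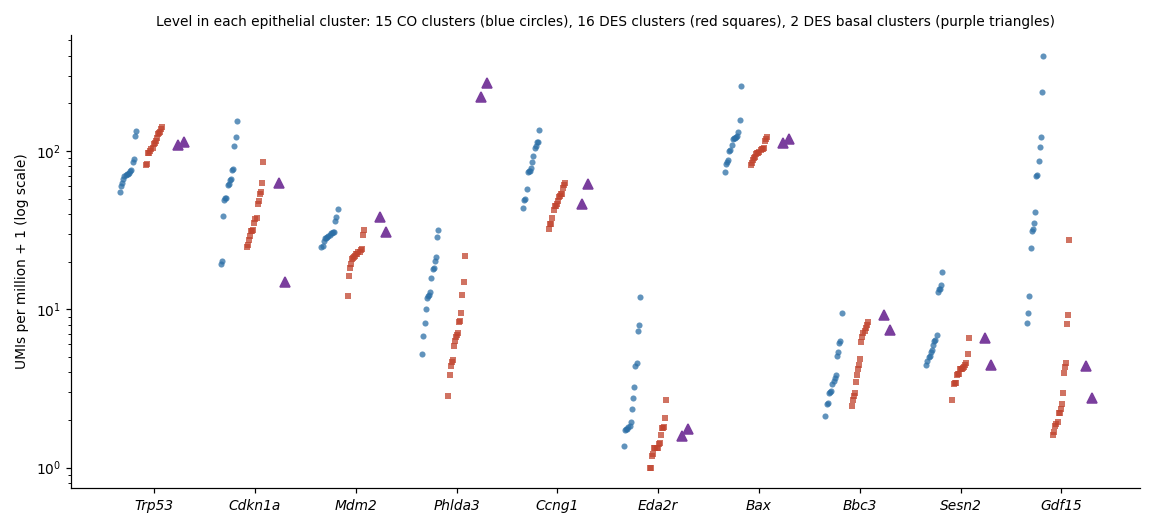
Level of each member in CPM plus 1, on a log scale, in the 15 CO epithelial clusters (blue circles), the 16 DES epithelial clusters (red squares) and the 2 DES basal clusters (purple triangles). Phlda3 in the basal clusters, at 219 and 267 CPM, stands above every other cluster, the topmost CO circle for Bax is CO12 at 256 CPM, and Gdf15 covers 7.18 to 400 CPM in CO and 0.612 to 26.4 CPM in DES.

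Within the 16 DES clusters the range was narrower than in CO for some members and wider for others. Bax ran from 81.1 to 122.4 CPM, a 1.51-fold range against 3.51-fold in CO, and Trp53 from 80.5 to 141.2 CPM, 1.75-fold against 2.47-fold in CO. Phlda3 had an 11.2-fold range against 7.26-fold in CO, and Mdm2 a 2.75-fold range against 1.76-fold. The Phlda3 range began in DES10, at 1.84 CPM and a median of 6344 UMIs a cell, so its lower end rests on few UMIs. Its upper end was DES14, which also had the most Krt14 of these clusters, 64.8 CPM. Trp53 was lowest in DES5, which carried the most Olfm4 (685 CPM), at 80.5 CPM (95% Poisson interval 74.7 to 86.6), next to DES1 at 81.9 CPM (78.1 to 85.8), and these neighbours did not differ beyond their intervals. At the top were DES11 at 141.2 CPM and DES8 at 137.8 CPM. In DES5, Cdkn1a was 61.6 CPM, second to DES9, Bbc3 was 1.69 CPM, second lowest, and Gdf15 was 0.676 CPM, also second lowest. A thinned DES cell held a UMI of 0.761 to 1.053 members on average.

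DES9, with immediate early genes at 10004 CPM where the other 15 DES clusters had 800 to 1536 CPM, was the DES cluster with the most Gdf15, Cdkn1a, Sesn2 and Eda2r. Gdf15 was 26.4 CPM there (95% Poisson interval 22.9 to 30.3) against 8.14 CPM in the next cluster, DES13. Cdkn1a was 83.8 CPM (77.5 to 90.5) against 61.6 CPM in DES5. Sesn2 at 5.56 CPM and Eda2r at 1.68 CPM were not apart from the next cluster. The CO clusters with immediate early sums from 8742 to 11513 CPM had Gdf15 between 30.3 and 400.0 CPM.

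**Figure D5:**
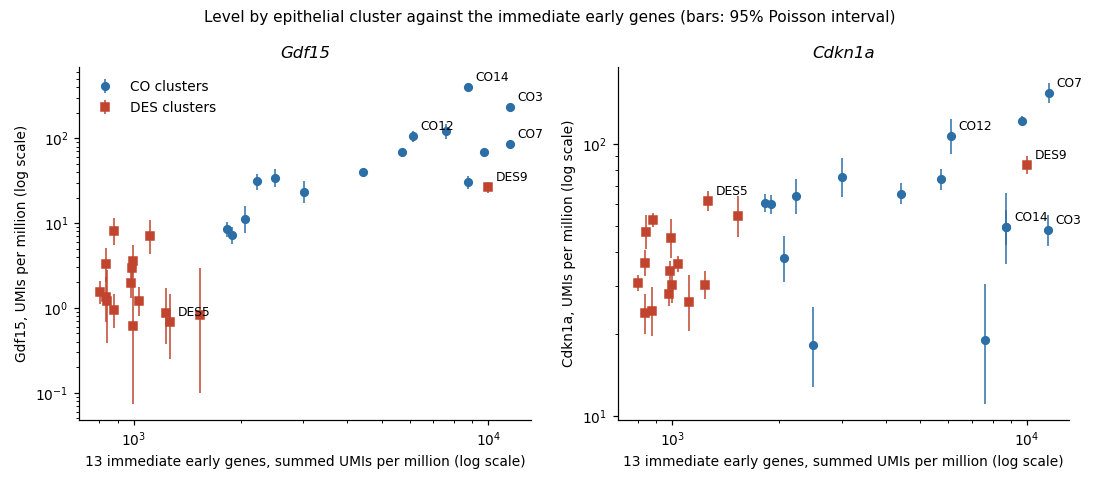
Gdf15 (left) and Cdkn1a (right) against the summed level of 13 immediate early genes in each epithelial cluster, all in CPM on log scales, with 95% Poisson intervals (blue circles 15 CO clusters, red squares 16 DES clusters). DES9 lies apart from the other DES clusters, with 10004 CPM of immediate early genes and 26.4 CPM of Gdf15, and CO14 and CO3 are the highest for Gdf15 at 400.0 and 235.9 CPM.

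The study took Olfm4 as a marker of the uterine cancer cells. In the DES sections, the 20% of spots richest in Olfm4 were set beside the rest of their own section as a description. Cdkn1a was 115.0 CPM in those spots and 58.6 CPM in the rest of DES A, and 93.4 and 62.3 CPM in DES B. Trp53 was 49.7 and 60.7 CPM in DES A and 43.6 and 50.2 CPM in DES B. Phlda3 was 347.5 and 293.9 CPM in DES A and 225.7 and 236.8 CPM in DES B, so its direction was not shared by the sections. Cell-type markers moved with this split, and their part in it was not tested. The 3 basal markers summed to 14172 CPM in the Olfm4-rich spots and 7494 CPM in the rest of DES A, and to 7212 and 5033 CPM in DES B, and the 4 muscle markers to 458 and 3117 CPM and to 729 and 3419 CPM. The Olfm4-rich spots were also deeper, with medians of 8184 and 8623 UMIs a spot against 3529 and 4616.

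Genes with patterns most like the members were sought over the 31 epithelial clusters, centred within each library, among 5733 genes of at least 20 CPM. For Trp53 these were Cdk4 (Pearson r 0.86), Cct7 (0.84) and Nasp (0.84), which encode a cell cycle kinase, a chaperonin subunit and a histone chaperone. Gdf15 was most like Tsc22d1 (0.84), the immediate early gene Jun (0.82) and Rassf1 (0.82), and Cdkn1a was most like Gprc5a (0.84) and Bhlhe40 (0.82). Ccng1 had another member among its 3, Bax at r 0.72, beside Dock11 and Anxa5. Bax was most like Smarcc1 (0.77), Wnt7a (0.76) and Rtf1 (0.76), Phlda3 like Rtf1 (0.67), Ccnd1 (0.65) and Keap1 (0.65), and Mdm2 like Lcor (0.72), Kdm3a (0.69) and RP23-349I9.6 (0.66). Sesn2, Eda2r and Bbc3 averaged 5.24, 1.61 and 3.71 CPM, so the likeness of Abca1, Fndc5 and Cobl to Sesn2 (0.86 to 0.89), of Tcf4, Abca1 and Olfm1 to Eda2r (0.83 to 0.87) and of Maz, Mpg and Mpnd to Bbc3 (0.67 to 0.68) rests on few UMIs.

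The 32 wider p53 targets went both ways in the sections. Over whole sections 2 were called higher and 1 lower, against 2.67% and 2.63% of all genes. At an unadjusted p under 0.05 these counts were 3 and 4 by edgeR, and DESeq2 called 3 and 3. For this list and those below, the counts of all genes at these settings are given above with the members of each region. The list had a median log2 change of -0.02 beside -0.08 for the 10 members and -0.01 for all genes tested. Dram1, an autophagy regulator, was 3.12 and 3.44 CPM in CO and 22.8 and 15.6 CPM in DES (5.04-fold, edgeR adjusted p = 0.0268). Perp, a desmosome protein that is also a p63 target in stratified epithelia, was 188.6 and 160.6 CPM in CO and 892.9 and 613.3 CPM in DES (3.71-fold, edgeR adjusted p = 0.0284). Dcxr, a xylulose reductase, was 250.04 and 212.5 CPM in CO and 118.9 and 116.2 CPM in DES, 2.28-fold lower (edgeR adjusted p = 0.0360).

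In the epithelium-rich spots 3 of the 32 were called higher and 3 lower, against 4.41% and 2.72% of all genes tested there. At an unadjusted p under 0.05 these counts were 3 and 6 by edgeR, and DESeq2 called 3 and 4. Dram1, Perp and Ak1, an adenylate kinase, were higher by 12.1-, 2.39- and 6.27-fold. Trp53inp1, Apaf1, the core of the apoptosome, and Dcxr were lower by 3.54-, 3.12- and 2.99-fold, with edgeR adjusted p between 0.0196 and 0.0263. In the stromal spots, 21 were tested and edgeR called 0, with 2 higher and 3 lower at an unadjusted p under 0.05, and DESeq2 called 1 higher.

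In the cells outside the basal clusters, 24 of the 32 reached 10 CPM, of which 1 was higher and 8 were lower in DES by 2-fold, against 6.92% and 7.71% of all genes at that level, with a median log2 ratio of -0.39 beside 0.06 for all genes. Ddb2, a sensor of ultraviolet damage, was the higher one at 6.05 and 12.6 CPM. The lowest ratios were those of Plk3 (0.112), Plk2 (0.127), Pmaip1 (0.207), which encodes the BH3 protein NOXA, and Tnfrsf10b (0.243), a death receptor. Plk2 and Plk3 are also immediate early genes, and the immediate early sums given above differed in the same direction. Mesothelial cells had 1 of 23 lower, Ak1 at a ratio of 0.492, and 0 higher, against 2.33% and 1.89% of all genes.

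Among p53 regulators and homologs, 2 of 18 were called higher over whole sections and 0 lower, against 2.67% and 2.63% of all genes, with 3 higher and 1 lower at an unadjusted p under 0.05 by edgeR and 3 higher and 0 lower by DESeq2. Trp73, the gene of p73, was 0 and 0.634 CPM in the CO sections and 21.6 and 19.6 CPM in the DES sections (edgeR adjusted p = 0.0346). Cdkn2a, whose p19ARF product blocks Mdm2 and whose p16 product blocks Cdk4, was 2.48 and 0.453 CPM in CO and 29.7 and 30.0 CPM in DES (17.1-fold, edgeR adjusted p = 0.0429). Both were called in the epithelium-rich spots too, at edgeR adjusted p of 0.0252 and 0.0333. Trp63, the basal cell gene of p63, named here after its values were seen, was 0.880 and 6.53 CPM in CO and 75.7 and 63.6 CPM in DES and did not pass the correction (edgeR adjusted p = 0.0617). In cells, 0 of 13 of these genes at 10 CPM or more passed 2-fold in the epithelium outside the basal clusters, where 6.92% of all genes were higher and 7.71% lower. That set was made by removing cells on their Krt14 and Trp63 counts, so it cannot show a rise of Trp63 in basal cells. Levels of Trp63, Trp73 and Cdkn2a in the basal cells were not examined.

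Lists of stress and growth genes were measured beside the members. Of the integrated stress response genes, which include inducers of Gdf15 and Sesn2, edgeR called 0 of 9 over whole sections, where 2.67% of all genes were called higher and 2.63% lower, with 0 higher and 1 lower at an unadjusted p under 0.05 and 0 by DESeq2. In the epithelial cells Atf3 was at a ratio of 0.158 and Atf4 at 0.429. Of the immediate early genes, Junb was called higher over whole sections, 2.20-fold, and Ier3 lower, 4.21-fold (edgeR adjusted p = 0.0306 and 0.0219). Of the cell cycle genes, edgeR called 0 of 14 over whole sections, against those same shares, with 1 higher and 3 lower at an unadjusted p under 0.05 and 1 lower by DESeq2. In the epithelial cells outside the basal clusters, 2 of 11 were higher by 2-fold and 0 lower, against 6.92% and 7.71% of all genes. These were Mcm6 and Mcm5, at ratios of 2.33 and 2.16. The median log2 ratio of the list was -0.16 beside 0.06 for all genes.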

How the data were processed

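The authors made the deposited UMI counts, whole numbers per gene and cell or spot, with Cell Ranger 3.0.1 and Space Ranger 1.2.2 on mm10. The methods state that doublets were removed, and whether the deposited counts still hold them was not checked. A sequencing saturation fraction deposited by the authors beside the counts was not used. Cell types, epithelial clusters and spot clusters were taken from the deposited annotation.

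UMIs were summed by library, cell type, cluster, section or region, and divided by the group total (CPM). Cell levels carry 95% Poisson intervals, ratios exact conditional intervals and shares, at 3000 UMIs a cell, Clopper-Pearson intervals; all cover counting error only. A count of 0 allows up to the upper Poisson bound. Barcodes shared by the 2 libraries numbered 180. Cell ratios were called at 2-fold among genes of at least 10 CPM in either group.

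Sections were compared by edgeR 4.0.16 (quasi-likelihood, TMM, filterByExpr, group only, Benjamini-Hochberg over all genes, 0.05), with DESeq2 1.42.0 as an alternative. SEs were derived from the F statistic. Sections come from separate mice on 1 slide. The test was tried on simulated data first.

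All members were named in the section, epithelial and mesothelial comparisons. From each list, up to 4 genes per direction with the largest called change were named, and for each member the 3 most correlated genes over epithelial clusters, of which 1 is not reported here. Members and lists were chosen with earlier results of these data known. Positions come from GENCODE M21 and promoters from RefSeq. Bax overlaps the gene model Gm45808 and Sesn2 the model Gm12981 on the same strand, so their counts may be shared.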

Additional observations from a re-analysis of the deposited data

Results flagged for a closer look

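Phlda3 moved in opposite directions between DES and CO in dissociated epithelium outside the basal clusters and in tissue. In epithelial cells outside the basal clusters the ratio was 0.437, and in the epithelium-rich spots the change was 8.09-fold. It was marked because the directions were opposite. The cells are 1 library for each treatment, and the difference between the assays was not tested. The basal clusters held Phlda3 at 219 and 267 CPM, and the cell ratio leaves out cells the study removed as basal. Over all cells annotated as Epithelial, Phlda3 was 13.4 CPM in CO and 20.3 CPM in DES.

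Gdf15 was 0.0518 times its CO level in DES epithelial cells and 6.05 times its CO level in DES myeloid cells, or 3.70 times with the DES-Myeloid-Lyz2hi cells added. Phlda3 was likewise at 3.47 times its CO level in the myeloid cells with that group added, against 0.437 in epithelial cells, and at 0.101 times without it. Cdkn1a was 0.471 times its CO level in DES mesothelial cells and 2.08 times its CO level in DES cells annotated as Lymphocytes. Each value rests on 1 library for each treatment, and the differences between cell types were not tested.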

How the results depend on the processing

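The Phlda3 rise kept its direction in all 9 alternatives in each of the 3 regions; its call was lost over whole sections without DES A or DES B, and in the stromal region with the 15% of spots richest in stromal markers (124 genes and 0 members higher there). DESeq2 called 822 genes higher and 969 lower over whole sections and 535 lower in the epithelium-rich spots, with 2 members higher in each. With no count filter, 368 genes were higher and 346 lower in the stromal spots, and 485 lower in the epithelium-rich spots. The letters A and B did not pair the sections (correlations of same-letter deviations from the group means -0.03 to 0.09). A replicate block gave 229 genes lower over whole sections, 253 higher and 200 lower in the stromal spots, and changed no member's call. Leaving out 1 section at a time left 1 group with a lone sample, assumed to vary like the other group. Over whole sections it gave 3 to 1311 genes higher, 0 to 1508 lower, 0 to 3 members higher and 0 to 1 lower. In the stromal spots it gave 38 to 158 genes higher and 2 to 199 lower, and in the epithelium-rich spots 142 to 1643 higher, 27 to 1574 lower, 1 to 2 members higher and 0 to 1 lower. The upper ends of the gene counts came without CO A. Adding the DES-Myeloid-Lyz2hi cells to the DES myeloid group, chosen after the data were seen, turned the Phlda3 ratio from 0.101 to 3.47. In mesothelial cells low in immediate early UMIs, 0 members were lower by 2-fold, and the share over all genes was not taken for those cells.

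In the section fits, directions turned only for members that were not called. Among the fits with all sections, the log2 change became 0.095 for Ccng1 in the stromal spots and 0.0068 for Bax in the epithelium-rich spots with the replicate block, 0.13 for Bbc3 in the 15% of spots richest in stromal markers, and 0.011 for Sesn2 in the 10% of spots richest in epithelial markers. With 1 section left out, the log2 changes over whole sections ran from -0.078 to 0.43 for Bax, -0.79 to 0.33 for Bbc3 and -0.25 to 0.081 for Sesn2. They ran from -0.28 to 0.62 for Mdm2 and -0.42 to 0.54 for Ccng1 in the stromal spots, and from -0.31 to 0.34 for Bax and -0.39 to 0.29 for Sesn2 in the epithelium-rich spots. The cause was not tested. With 2 sections a group, an exact permutation test cannot go below p = 0.333, and Gdf15, Eda2r and Sesn2 rest on few UMIs.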

Other observations

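The 136 DES cells annotated as DES-Myeloid-Lyz2hi, a group with no CO counterpart, held Gdf15 at 115.8 CPM (95% Poisson interval 102.1 to 130.8), Cdkn1a at 195.7 CPM (177.8 to 215.0) and Phlda3 at 63.7 CPM (53.7 to 75.1). In the 228 DES cells annotated as Myeloid, Phlda3 was 0.981 CPM (0.119 to 3.54). Gdf15 was 451.6 CPM and Cdkn1a 142.7 CPM (126.8 to 160.1) in the latter, so the intervals of all 3 genes lay apart between these myeloid groups of 1 library.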
